A study of Mus musculus with 6 samples.

Results

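Axon guidance genes encode the ligands and receptors by which one cell steers, repels or holds another, and 58 of the 24061 genes in the count table belong to the 4 systems described here. They were chosen by symbol alone: 20 semaphorins of classes 3 to 7, 9 plexins, 3 Slits, 4 Robos, 14 Eph receptors and 8 ephrins. The data are bulk RNA sequencing counts of mouse lung, 3 libraries of genotype CCSP/- (control) and 3 of genotype CCSP/TGFalpha (TGFalpha). Both groups carried CCSP and both had been given doxycycline, a tetracycline that switches inducible transgenes, for 3 weeks, so they differ in the TGFalpha transgene alone as far as the labels say. CCSP stands for club cell secretory protein; its promoter serves to aim transgenes at lung epithelium. TGFalpha is a ligand of the epidermal growth factor receptor. The sources used here do not give strain, age or sex, or whether replicates were separate mice, so p-values describe the spread between these libraries only. The comparison asks which guidance transcripts were higher or lower in the lungs with TGFalpha.

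Semaphorins are secreted (class 3) or membrane-bound ligands, and plexins are their receptors. Class 3 members mostly need neuropilin as a coreceptor, while Sema3e can bind plexin D1 directly. Slits are secreted ligands of Robo receptors. Eph receptors are tyrosine kinases that bind ephrins on a neighbouring cell, the A ephrins being anchored by a lipid and the B ephrins spanning the membrane. All 4 systems also act outside the nervous system, and in blood vessels ephrin-B2 is known as an arterial marker, EphB4 as a venous one and Robo4 as a receptor of endothelium.

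Libraries held 21479006 to 24914322 counts. The 58 guidance genes took 0.268, 0.321 and 0.331% of all counts in the control libraries (replicates 1 to 3, the order used throughout) and 0.182, 0.216 and 0.272% in the TGFalpha libraries, so the groups overlapped narrowly. Lung identity was plain in all 6 libraries, with 8 alveolar type 2 markers summing to 20180 to 34360 CPM (counts scaled to a common, TMM-adjusted library size). The range owed much to Lyz2, which gave 17183 CPM of the highest sum, in control replicate 1. Sftpc alone was at 3456 to 7540 CPM over the libraries. The mouse Tgfa row was at 25.8 CPM in control and 27.5 CPM in TGFalpha lungs (adjusted p = 0.739), and the transgene's sequence was not given in the sources used here, so this row cannot check the labels. Skeletal muscle markers (6 tested of 8) summed to 1090 CPM in control replicate 1 and 1913 CPM in TGFalpha replicate 1, against 51.9 to 68.3 CPM in the other 4 libraries. The guidance results were therefore also computed without those 2 libraries.

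Of the 58 genes, 51 had enough counts to be tested. At an adjusted p under 0.05 (edgeR quasi-likelihood test, Benjamini-Hochberg over 16089 genes), 4 rose (Ephb2, Efna2, Efna5 and Sema5a) and 5 fell (Efnb2, Sema6a, Sema3e, Robo4 and Plxna1). That is 17.6% of the tested guidance genes, beside 8.33% of all tested genes, 5.03% that rose and 3.29% that fell. The remaining 42 did not pass. The median log2 fold change of the 51 was -0.07, beside 0.01 over all genes, with 24 positive and 27 negative values. For 20 guidance genes the CPM ranges of the groups were apart (39.2%, beside 33.2% of all genes), 9 with TGFalpha above and 11 with TGFalpha below.

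**Figure D1:**
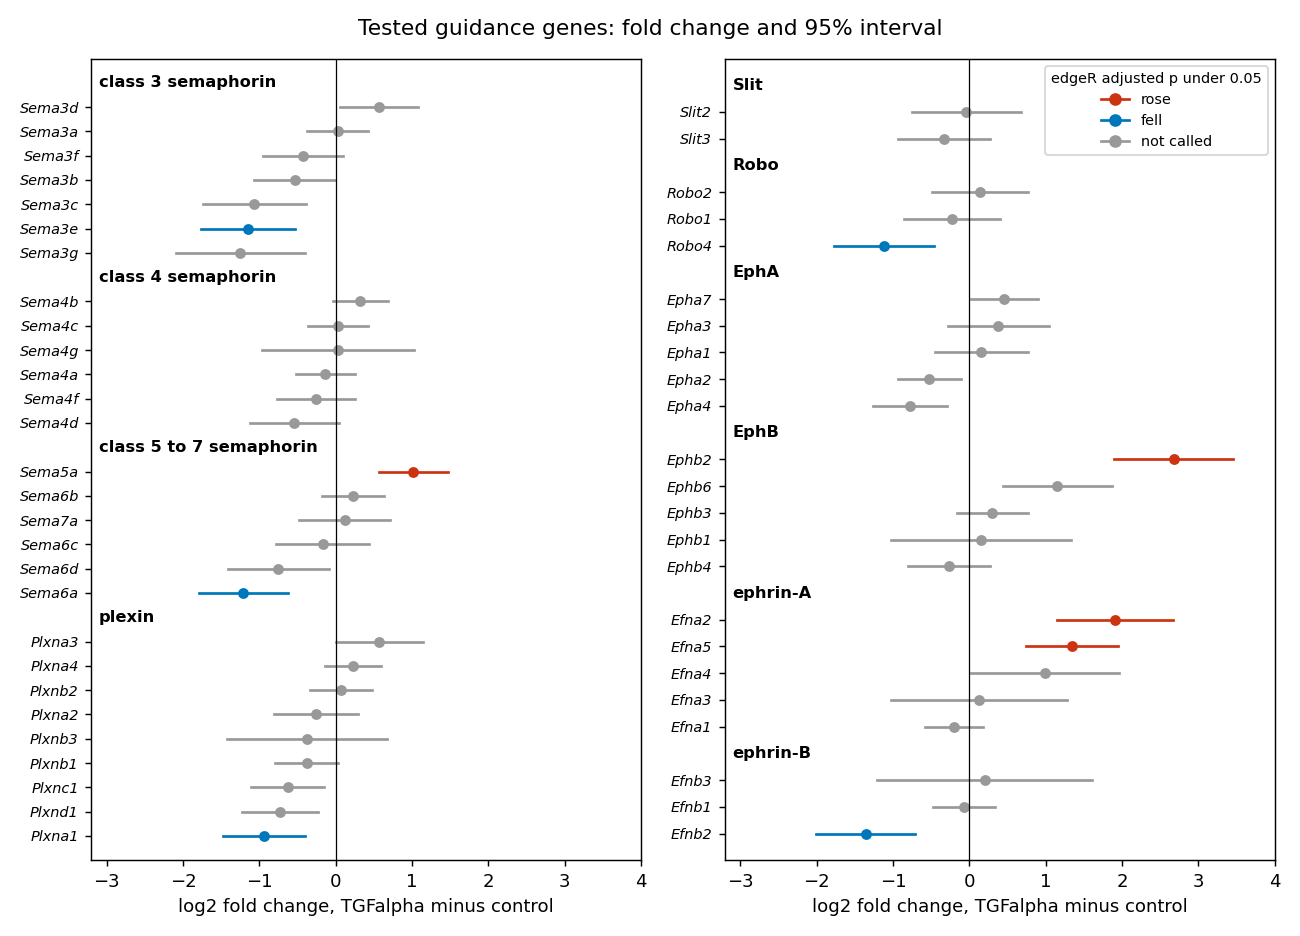
Log2 fold change (TGFalpha minus control, x axis) of the 51 tested guidance genes by family; points are edgeR estimates and lines 95% intervals, red for genes that rose, blue for genes that fell, grey for genes not called. The class 3 semaphorins run from -1.25 to 0.56, while 4 of 5 ephrin-A genes and 4 of 5 EphB genes have positive values.

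In control lung the genes that fell had higher levels than those that rose, but control is also the baseline of the fold change. Levels between genes can be compared only per length, here as CPM per kb of exon (exon length from GENCODE M21). On that scale Sema3c led in control at 91.5 ± 15.3 (SD, n = 3), with Plxnb2 next at 37.4 ± 6.83. In TGFalpha lungs Sema3c (43.8 ± 19.1, from 32.6 to 65.85) and Plxnb2 (39.1 ± 4.65, from 34.3 to 43.6) overlapped. In control Sema3e (33.9 ± 6.17), Efnb2 (28.1 ± 7.35) and Ephb4 (27.2 ± 5.08) followed with overlapping spreads. Ephb2, which rose most, was near the bottom of the order in control at 0.166 CPM per kb and reached 1.07 in TGFalpha lungs. Efna2 went from 0.907 to 3.41 and Efna5 from 2.68 to 6.81 CPM per kb. In TGFalpha lungs the genes that fell (3.94 to 15.3 CPM per kb) and those that rose (1.07 to 6.87) overlapped.

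**Figure D2:**
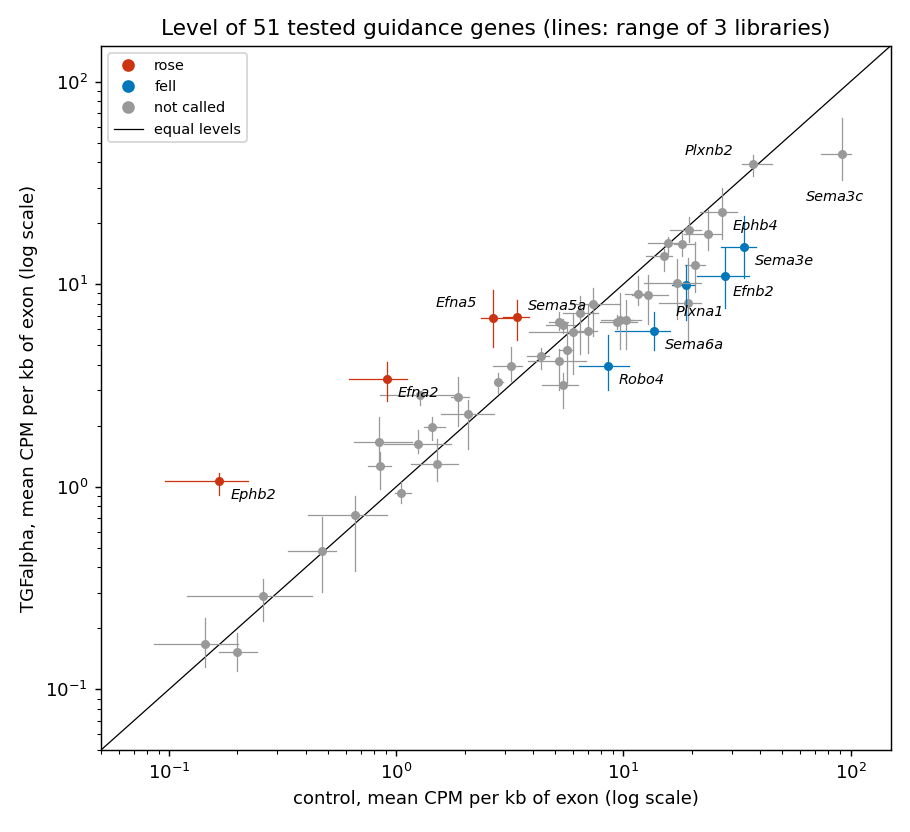
Mean level per gene in control (x axis) and TGFalpha lungs (y axis), both in CPM per kb of exon on log scales; lines span the 3 libraries of a group, and the diagonal marks equal levels. Genes that fell (blue) lie between 8.57 and 33.9 CPM per kb in control, and genes that rose (red) between 0.166 and 3.40.

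Start regions differed in CpG content among the called genes. RefSeq windows on GRCm38.p6, from 250 bases before to 50 after a start, were matched for 51 of the 58 genes (67 windows), and for 7 of the 9 called ones. Those of the largest rise, the largest fall and the endothelial receptor gene are printed 5′ to 3′ on the gene's strand, with capitals for each CpG: Ephb2 at chr4:136835963-136836262 (minus strand), Efnb2 at chr8:8661193-8661492 (minus) and Robo4 at chr9:37401722-37402021 (plus).
Ephb2: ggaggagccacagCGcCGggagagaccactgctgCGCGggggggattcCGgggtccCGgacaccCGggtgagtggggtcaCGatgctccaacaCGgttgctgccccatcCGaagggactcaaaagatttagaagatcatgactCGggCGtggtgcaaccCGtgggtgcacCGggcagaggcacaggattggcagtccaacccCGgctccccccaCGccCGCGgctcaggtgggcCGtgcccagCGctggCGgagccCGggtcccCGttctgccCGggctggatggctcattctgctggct
Efnb2: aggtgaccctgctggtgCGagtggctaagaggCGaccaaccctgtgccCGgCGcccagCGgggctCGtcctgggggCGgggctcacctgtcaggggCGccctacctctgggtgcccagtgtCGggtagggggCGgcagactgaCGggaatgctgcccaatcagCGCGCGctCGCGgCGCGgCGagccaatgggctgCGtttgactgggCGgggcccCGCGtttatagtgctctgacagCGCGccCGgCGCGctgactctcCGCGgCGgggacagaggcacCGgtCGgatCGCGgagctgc
Robo4: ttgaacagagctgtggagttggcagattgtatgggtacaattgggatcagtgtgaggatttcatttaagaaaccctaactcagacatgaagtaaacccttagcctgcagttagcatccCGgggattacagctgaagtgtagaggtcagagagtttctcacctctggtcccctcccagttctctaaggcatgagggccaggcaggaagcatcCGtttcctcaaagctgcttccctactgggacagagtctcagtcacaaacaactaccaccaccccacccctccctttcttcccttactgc
The Ephb2 window holds 24 CpGs and 68.7% G and C, the Efnb2 window 35 and 72.3%, and the Robo4 window 2 and 50.3%. The windows of Efna2, Efna5, Sema5a and Sema3e hold 31, 38, 23 and 11 CpGs. Medians were 18 CpGs and 64.0% over the 67 guidance windows, and 7 CpGs and 52.7% over all 32851 windows. The letters GGGCGG, searched on both strands as the core of Sp factor sites, occur in 47 guidance windows (70.1%, beside 35.7% of all), including Efna2, Efna5, Efnb2, Sema3e and Sema5a but not Ephb2 or Robo4. The AP-1 letters TGANTCA were in 3 guidance windows (4.48%, beside 7.81%) and the ETS letters CCGGAAG in 2 (2.99%, beside 8.86%), both on either strand, and in none of the 7 windows of called genes. A match or its absence describes these letters in this window alone.

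The Eph receptors held the largest rise of any guidance gene. Ephb2 (gene ID 13844; GRCm38, chromosome 4, 136647536 to 136836326) encodes a receptor of B ephrins. It was counted 49, 53 and 23 times in the control libraries and 300, 301 and 236 times in the TGFalpha libraries, or 1.97, 2.43 and 1.05 CPM against 12.8, 12.4 and 9.89 CPM. Every TGFalpha library lay above every control library. The log2 fold change was 2.68 ± 0.34 (SE; edgeR adjusted p = 0.00502), a 6.41-fold rise, and Ephb2 stayed past the threshold in all 6 fits with 1 library left out (adjusted p 0.0113 to 0.0238).

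Other Eph receptors did not pass. Ephb6, an Eph receptor without kinase activity, was at 4.13, 7.01 and 3.20 CPM in control and 11.1, 11.2 and 9.55 CPM in TGFalpha lungs, with no overlap (log2 fold change 1.15 ± 0.31, edgeR adjusted p = 0.0599; 0.00966 by DESeq2). Epha4, a receptor of both ephrin classes, had the smallest adjusted p of the EphA genes. It was at 27.7, 35.5 and 40.1 CPM in control and 15.6, 23.0 and 21.7 CPM in TGFalpha lungs, again with no overlap (log2 fold change -0.78 ± 0.21, edgeR adjusted p = 0.0586; 0.0124 by DESeq2). Epha2, the EphA gene with the highest mean CPM, was at 36.5 ± 7.48 and 25.4 ± 2.01 CPM (edgeR adjusted p = 0.11). Ephb4, the venous receptor of ephrin-B2 and the most abundant EphB gene, was at 94.8, 139 and 123 CPM in control and 93.7, 73.2 and 130 CPM in TGFalpha lungs. Its groups overlapped, and the 95% interval of its log2 fold change ran from -0.81 to 0.28. Of 9 EphA genes 4 were too low to test: Epha6 and Epha10 had no count in any library, which allows up to 0.0214 CPM over all 6 libraries (3 counts; counting error only), and Epha5 and Epha8 had 6 or fewer in each.

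Among 5 ephrin-A genes 2 rose in TGFalpha lungs, and 4 had positive log2 fold changes. Efna2 (gene ID 13637; chromosome 10, 80179482 to 80190010) was at 2.09, 2.38 and 1.32 CPM in control and 8.80, 5.63 and 7.37 CPM in TGFalpha lungs, a log2 fold change of 1.91 ± 0.33 (edgeR adjusted p = 0.0161). Efna5 (gene ID 13640; chromosome 17, 62602957 to 62881317) was at 9.55, 9.76 and 13.1 CPM and then 19.7, 37.6 and 24.97 CPM (1.35 ± 0.26, edgeR adjusted p = 0.0237). Neither gene's groups overlapped. Efna4 was low, at 1.04 to 1.88 CPM in control and 2.01 to 3.53 CPM in TGFalpha lungs, and did not pass (edgeR adjusted p = 0.174). Efna1, a ligand of EphA2 and the most abundant ephrin-A, was at 33.3 ± 3.93 and 28.9 ± 3.80 CPM, with a 95% interval of the log2 fold change from -0.58 to 0.18.

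Efnb2, the ephrin of arterial endothelium, had the largest fall of the 51 genes. Its row (gene ID 13642; chromosome 8, 8617235 to 8661242) was at 101, 131 and 172 CPM in control and 36.7, 48.8 and 72.1 CPM in TGFalpha lungs. The groups were apart, the nearest libraries being control replicate 1 and TGFalpha replicate 3. The log2 fold change was -1.36 ± 0.28 (edgeR adjusted p = 0.0285), a 2.57-fold fall. Its family members did not pass: Efnb1 was at 63.5 ± 10.03 and 60.5 ± 8.84 CPM, and Efnb3 stayed under 1 CPM in every library. The ratio of Efnb2 to Ephb4 within a library was 1.07, 0.949 and 1.39 in control and 0.392, 0.666 and 0.555 in TGFalpha lungs. The ratios did not overlap between groups, and the exact 2-sided permutation p was 0.1, the smallest that 20 splits allow (0.4 adjusted over the 12 ratios computed, all chosen after values were seen).

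Most secreted class 3 semaphorins had negative log2 fold changes, but a single member passed. Sema3e (gene ID 20349; chromosome 5, 14025276 to 14256689), the plexin D1 ligand, was at 184, 249 and 264 CPM in control and 73.7, 92.2 and 149 CPM in TGFalpha lungs. The groups did not overlap, and the log2 fold change was -1.15 ± 0.27 (edgeR adjusted p = 0.0412). Sema3c, the guidance gene with the highest mean CPM in control, was at 406, 555 and 547 CPM in control and 181, 179 and 362 CPM in TGFalpha lungs. Its groups were also apart, but TGFalpha replicate 3 lay close to control replicate 1, and Sema3c did not pass (-1.06 ± 0.29, edgeR adjusted p = 0.0632; 0.00182 by DESeq2). Sema3g, a semaphorin of endothelium, had a log2 fold change of -1.25 with a wide 95% interval, -2.10 to -0.40 (edgeR adjusted p = 0.0756). Sema3a, the classical growth cone repellent, was at 98.2 ± 17.3 and 99.8 ± 10.5 CPM, and Sema3d had a positive value of 0.56 (edgeR adjusted p = 0.149). Over the 7 class 3 genes the median log2 fold change was -0.54, with 5 negative values.

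Membrane semaphorins went in both directions. Sema5a (gene ID 20356; chromosome 15, 32244813 to 32696341), which carries thrombospondin repeats, rose from 31.9, 36.9 and 41.5 CPM in control to 57.5, 90.7 and 74.7 CPM in TGFalpha lungs (log2 fold change 1.02 ± 0.20, edgeR adjusted p = 0.0235). Sema6a (gene ID 20358; chromosome 18, 47245254 to 47371200), a transmembrane ligand of A plexins, fell from 65.2, 114 and 112 CPM to 33.8, 39.9 and 52.0 CPM (-1.21 ± 0.25, edgeR adjusted p = 0.0294). Groups were apart for both genes. Sema6d, the most abundant gene of classes 5 to 7, was at 88.4, 123 and 158 CPM and then 48.3, 75.8 and 95.3 CPM, with overlap (edgeR adjusted p = 0.138; 0.0453 by DESeq2). None of the 6 class 4 genes passed by edgeR, DESeq2 or limma-voom, and none had an unadjusted edgeR p under 0.05. Sema4d, a plexin B1 ligand of lymphocytes, had the smallest adjusted p of them (45.9 ± 9.51 and 31.5 ± 10.3 CPM; 0.212), and Sema4a the highest level (52.0 ± 7.49 and 47.4 ± 6.38 CPM).

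Among the semaphorin receptors 1 of 9 plexins fell. Plxna1 (gene ID 18844; chromosome 6, 89316313 to 89362613), a signalling receptor that pairs with neuropilin, was at 148, 185 and 179 CPM in control and 60.3, 94.4 and 113 CPM in TGFalpha lungs. The groups did not overlap, and the log2 fold change was -0.94 ± 0.23 (edgeR adjusted p = 0.0464). Of its exon bases 10.7% overlap an antisense gene, and without a stated strand setting reads of the 2 cannot be told apart. Plxnd1, the receptor of Sema3e, was at 140, 158 and 128 CPM and then 63.0, 111 and 83.9 CPM, apart but not past the threshold (-0.73 ± 0.22, edgeR adjusted p = 0.076; 0.0126 by DESeq2). Plxnb2, the plexin with the highest mean, stood at 245 ± 44.9 and 257 ± 30.5 CPM, with a 95% interval of its log2 fold change from -0.34 to 0.48.

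Slit2, Slit3, Robo1 and Robo2 did not separate the groups, whereas Robo4 did. Slit2, a secreted Robo ligand, was at 38.5, 69.9 and 71.9 CPM in control and 36.0, 71.5 and 67.7 CPM in TGFalpha lungs. In both groups replicate 1 was the low library, and the 95% interval of the log2 fold change, -0.76 to 0.68, leaves room for a change of either sign. Slit3 was at 27.3 ± 7.94 and 21.7 ± 5.28 CPM. Robo4 (gene ID 74144; chromosome 9, 37401902 to 37414023) was at 32.7, 54.05 and 44.5 CPM in control and 15.3, 16.4 and 28.7 CPM in TGFalpha lungs, with no overlap (-1.12 ± 0.28, edgeR adjusted p = 0.0491). With library totals as the only scaling Robo4 did not pass (edgeR adjusted p = 0.052). Robo1 and Robo2 had log2 fold changes of -0.23 and 0.14, and the ratio of Robo4 to Robo1 was 3.72 to 3.90 in control and 1.88 to 2.19 in TGFalpha lungs (exact permutation p = 0.1, the smallest possible; 0.4 adjusted over the 12 ratios). The ratio of Sema3e to its receptor gene Plxnd1 overlapped, at 1.31 to 2.06 and 0.831 to 1.77 (exact permutation p = 0.4; 0.75 adjusted).

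**Figure D3:**
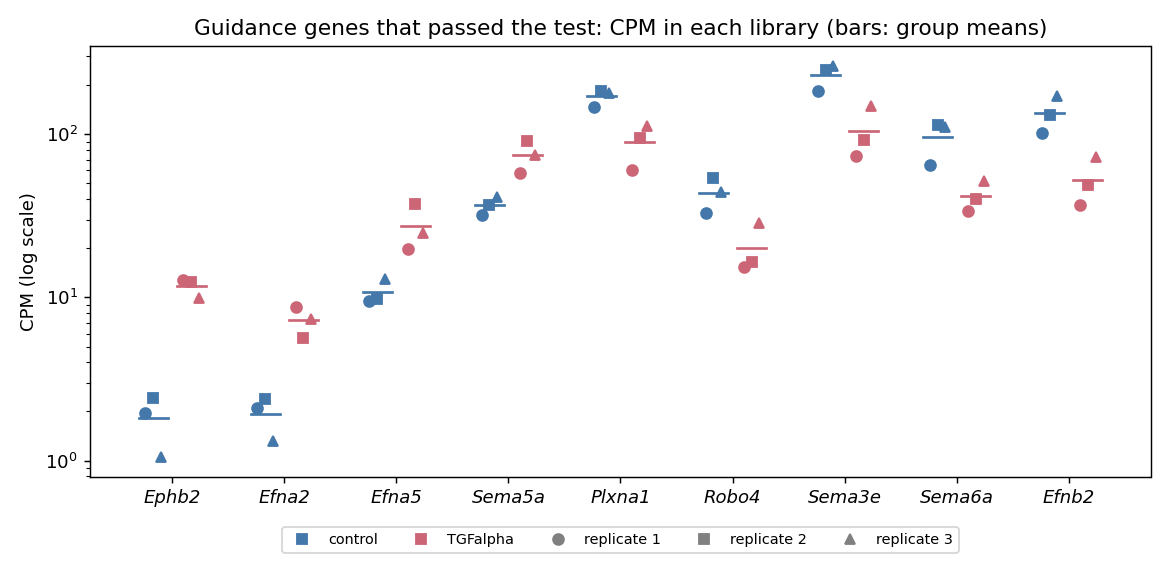
CPM in each library (y axis, log scale) for the 9 guidance genes that passed the test; symbols mark replicates and bars group means of control (blue) and TGFalpha (red). In all 5 genes that fell, control replicate 1 is the lowest control and TGFalpha replicate 3 the highest TGFalpha library.

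The 5 falls shared their nearest libraries. In each, control replicate 1 was the lowest control and TGFalpha replicate 3 the highest TGFalpha library. Among all 27 tested guidance genes with a negative value, 16 had both features, and 3 of the 24 with a positive value did. The same shares over all tested genes were not computed. Over all tested genes, deviations from the group mean in control replicate 1 and TGFalpha replicate 3 correlated at -0.488. The pattern was therefore not particular to guidance genes, and the endothelial markers Pecam1, Tek and Kdr had both features too.

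Endothelial markers had the same direction as the falls. All 12 had negative log2 fold changes, 3 fell (Pecam1, Tek and Kdr) and the median was -1.11. Their summed level was 2559, 4743 and 4351 CPM in control and 1402, 1358 and 2473 CPM in TGFalpha lungs. In bulk lung fewer cells of a type and less RNA per cell cannot be told apart. Relative to that sum, the shares of the 5 genes that fell overlapped between groups, as did that of Sema3c, which had not passed. Robo4 was 1.28, 1.14 and 1.02% of it in control and 1.09, 1.21 and 1.16% in TGFalpha lungs. Sema3e was 5.25 to 7.21% and 5.26 to 6.79%, Sema6a 2.40 to 2.57% and 2.10 to 2.94%, Sema3c 11.7 to 15.9% and 12.9 to 14.6%, and Plxna1 3.89 to 5.78% and 4.30 to 6.95%. Efnb2 was 2.77 to 3.96% and 2.62 to 3.59%. Overlap with 3 libraries a group does not show that the shares were equal. Shares of other cell types' markers were not computed. The alveolar type 1 sum was also lower, at 3279, 4404 and 4974 CPM in control and 2193, 1784 and 2902 CPM in TGFalpha lungs. Of its 8 markers 7 had negative log2 fold changes. Cav1 (940, 1516 and 1418 CPM in control) and Clic5 (885, 1072 and 1340 CPM) were its largest parts, and both fell. Ager, the next largest, overlapped between groups (edgeR adjusted p = 0.431). Whether the falls follow endothelial markers more closely than those of other cells was not tested. Of the 9 genes so expressed, only the share of Ephb4 was apart between groups. It was 3.71, 2.92 and 2.83% in control and 6.68, 5.39 and 5.25% in TGFalpha lungs. The exact permutation p was 0.1, the smallest possible, and 0.4 adjusted over the 12 ratios. Because the CPM of Ephb4 overlapped while the sum was lower, the higher share restates the lower sum. Any gene of unchanged CPM would show it, so it says nothing particular about Ephb4.

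**Figure D4:**
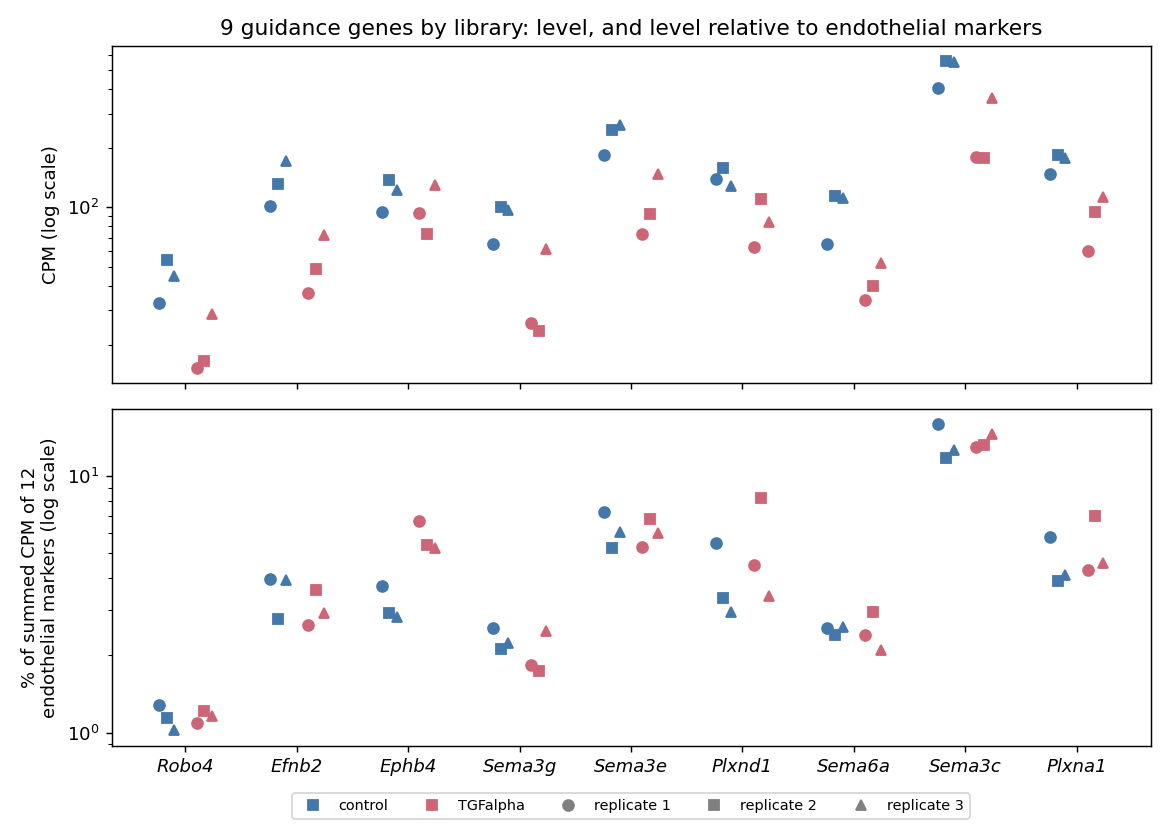
CPM of 9 guidance genes (upper panel) and the same levels as a percentage of the summed CPM of 12 endothelial markers (lower panel), each library a point, both on log scales. Robo4 goes from 32.7 to 54.05 CPM in control to 15.3 to 28.7 CPM in TGFalpha lungs in the upper panel, and lies between 1.02 and 1.28% in both groups in the lower one.

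Markers of other cells also differed. Fibroblast markers summed to 1494 to 1726 CPM in control and 5381 to 8638 CPM in TGFalpha lungs, with 6 of 10 up. Alveolar type 1 markers summed to 3279 to 4974 and 1784 to 2902 CPM (3 of 8 down). Their member Aqp5 went the other way, at 85.8, 105 and 89.4 CPM and then 188, 111 and 191 CPM. It did not pass (edgeR adjusted p = 0.0616). Ciliated markers summed to 230 to 266 and 92.3 to 141 CPM (4 of 8 down), and club markers to 9997 to 12420 and 5641 to 7507 CPM (2 of 6 down). Mesothelial markers overlapped between groups (214 to 423 and 403 to 554 CPM; of 6 tested, Wt1 rose and Krt19 fell), as did smooth muscle and pericyte markers (352 to 529 and 499 to 871 CPM; 1 up and 1 down of 10), macrophage markers (5435 to 17450 and 2250 to 15360 CPM) and B cell markers (76.6 to 84.6 and 44.5 to 101 CPM). Krt19 alone held 189, 204 and 191 CPM of the mesothelial sums in control and 150, 109 and 115 CPM in TGFalpha lungs. Control replicate 3 was low in Wt1, Upk3b, Upk1b, Lrrn4 and Msln (0.731, 6.57, 0.868, 3.65 and 11.4 CPM). Chil3 alone held 16423 CPM of the macrophage sum in control replicate 1 and 14457 CPM in TGFalpha replicate 2. In the other libraries Chil3 was at 1741 to 6431 CPM. T and NK cell markers lay at 91.9 to 153 and 54.8 to 92.1 CPM, with none called. The nerve markers Tubb3, Nefl, Nefm, Prph and Sox10 were too low to test, and S100b rose. The part of these cell types in the guidance results was not tested.

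Calls of the falling genes rested on few libraries. Leaving out control replicate 2 or 3, or TGFalpha replicate 1 or 2, ended all 5: edgeR then gave no guidance falls, and the falls with an unadjusted p under 0.05 numbered 9, 11, 10 and 12. Falls over all tested genes dropped in the same 4 fits, from 530 to 43, 34, 94 and 151. The log2 fold changes stayed between -1.67 and -1.15 for Efnb2, -1.44 and -1.07 for Sema6a, -1.50 and -0.95 for Sema3e, -1.47 and -0.94 for Robo4, and -1.15 and -0.72 for Plxna1 over all 6 fits. Without control replicate 1, 4 of the 5 kept their call, and without TGFalpha replicate 3 all 5 did. The direction held in every such fit. With both libraries rich in muscle transcripts left out, Efnb2 and Sema6a still fell and Ephb2, Efna5 and Sema5a still rose. Efna2 (edgeR adjusted p = 0.069), Sema3e (0.069), Plxna1 (0.0637) and Robo4 (0.0869) did not pass in that fit. Among the genes that rose, Efna2 missed the threshold when control replicate 2 or 3 or TGFalpha replicate 1 was left out (adjusted p at most 0.0718), Efna5 without any control library or TGFalpha replicate 2 (at most 0.102), and Sema5a without any 1 library but TGFalpha replicate 1 (at most 0.0945).

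**Figure D5:**
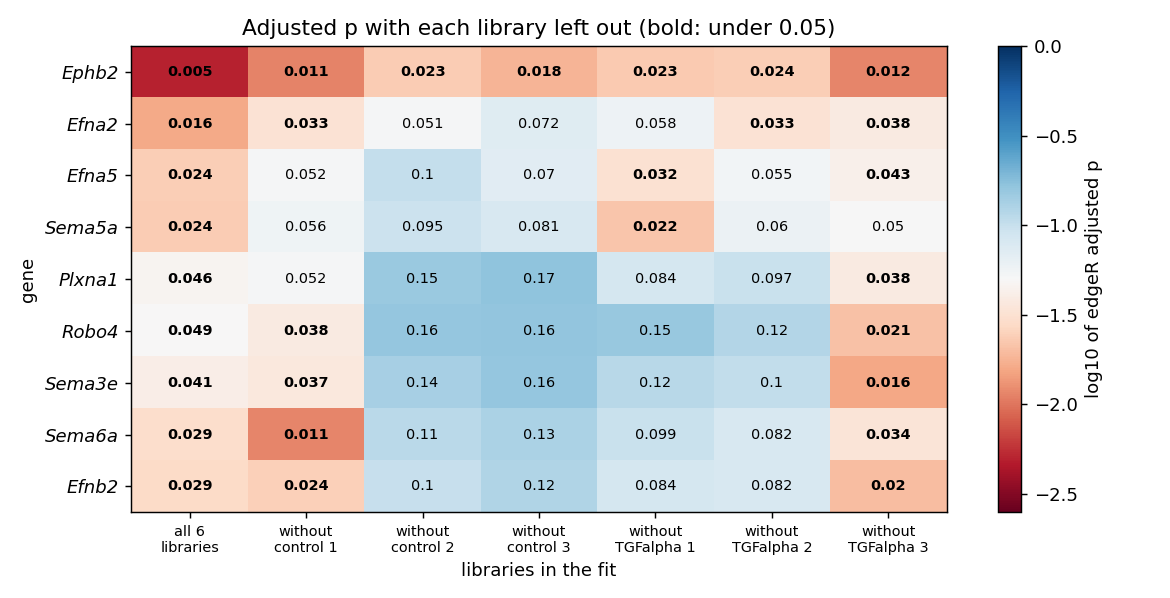
EdgeR adjusted p of the 9 called guidance genes (rows) in the fit with all 6 libraries and with each library left out (columns); red cells are smaller p and blue cells larger p, and bold marks values under 0.05. Ephb2 is under 0.05 in every column, and the 5 lower rows exceed it without control 2, control 3, TGFalpha 1 or TGFalpha 2.

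Partners of the guidance receptors, 49 genes of which 46 were tested, also went both ways. Of these 46, 5 rose, 4 fell and the median log2 fold change was -0.15. Over all tested genes 5.03% rose and 3.29% fell, and the median was 0.01. The neuropilin coreceptor Nrp1 was at 554, 873 and 803 CPM in control and 376, 465 and 628 CPM in TGFalpha lungs, with overlap (edgeR adjusted p = 0.163), and Nrp2 at 107 ± 7.99 and 78.9 ± 22.2 CPM (0.24). Dpysl3, a cytoplasmic mediator of semaphorin signals, rose from 69.1 ± 11.2 to 173 ± 32.6 CPM (edgeR adjusted p = 0.00902), and Gpc1, a heparan sulfate proteoglycan that binds Slit, from 13.3 ± 2.29 to 34.4 ± 6.20 CPM (0.00838). The adaptor gene Nck2, which couples Eph receptors and ephrin-B to actin, rose from 31.4 ± 4.49 to 54.6 ± 6.69 CPM (0.0292). In the netrin system, the receptor gene Unc5b rose from 22.0 ± 3.15 to 61.0 ± 16.4 CPM (edgeR adjusted p = 0.00838) while the ligand gene Ntn4 fell from 83.8 ± 17.5 to 36.9 ± 7.67 CPM (0.0189). Flrt3, a membrane protein that binds Robo1 and Unc5b, fell from 106 ± 24.3 to 40.2 ± 16.7 CPM (0.0355). The other 3 called partners were Mical2, which rose, and Arhgef15 and Ntn1, which fell; they are named after their values were seen.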

How the data were processed

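The authors deposited raw gene counts, whole numbers with no normalization, for 24061 gene identifiers in 6 lung libraries. Per the submitters' processing notes the tools were bcl2fastq, CASAVA 1.8, TopHat and DESeq with build mm10; the counter, annotation and strand setting are not given in the sources used here. Columns were matched to samples by their description labels. Symbols came from RefSeq genes on GRCm38.p6 (the build of mm10), which named 23976 identifiers and left 85 unnamed but counted. The test was edgeR 4.0.16 (R 4.3.3), quasi-likelihood F, TMM scaling, expression filter by group, group as the only term, Benjamini-Hochberg over 16089 genes, threshold 0.05. SE and 95% intervals derive from the F statistic. CPM use scaled library sizes, and common biological variation was 0.295. The edgeR, DESeq2 and limma-voom tests were tried on simulated data, but not the permutation test or the fit with a replicate block. Alternatives were other scaling, filters, DESeq2 1.42.0, limma-voom (limma 3.58.1), a replicate block, each library left out and a threshold of 0.01. The genes named are all called ones, each family's smallest adjusted p and highest mean CPM, and of the partners Nrp1, Nrp2 and the 6 smallest adjusted p; Ephb6, Sema3g, Plxnd1 and other family members were added after values were seen. Members and lists were chosen with earlier results of these data known. No library was a duplicate (chi-square over degrees of freedom at least 46.6 within groups).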

Additional observations from a re-analysis of the deposited data

How the results depend on the processing

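Of the counts, 4 guidance genes rose and 5 fell with edgeR, 1340 genes changed over the whole table and 9 partners changed. DESeq2 gave 11 guidance falls, 2506 changed genes (1225 of them falls, of 16788 tested) and 14 partners. The labels give both groups replicate numbers 1 to 3, but nothing says that a number marks a shared litter or day, and deviations from group means correlated at 0.421, -0.0516 and 0.222 for the same-numbered libraries, so the numbers were not taken as pairs. With the replicate block 10 guidance genes fell and 5 rose, while 668 fell and 802 rose among all 16089 tested genes. At an adjusted p under 0.01, 1 guidance gene rose and 0 fell by edgeR (13 were lower at an unadjusted p under 0.05), with 260 genes and 3 partners changed. Without both libraries numbered 1, an alternative chosen after seeing the data, 2 guidance genes fell and 473 genes and 5 partners changed. With 1 library left out the ranges were 1 to 3 for rises, 0 to 7 for falls, 238 to 1088 for all genes and 1 to 9 for partners. Other scalings and filters left the counts within 1.5 times. Of the 28 genes for which the alternatives were run one by one, chosen by the naming rule, 2 near 0 changed sign: with 1 library left out, Plxnb2 lay between -0.0145 and 0.219 (negative without control replicate 2 or 3, or TGFalpha replicate 2) and Slit2 between -0.289 and 0.214 (positive without control replicate 2 or 3, or TGFalpha replicate 1). The causes were not tested. Depth limits the lowest genes: Ephb1, Plxnb3, Efna3 and Efnb3 had 60 counts or fewer in each library.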

Other observations

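Several guidance genes lie beside each other in the genome, and neighbours did not share a direction throughout. On chromosome 5 Sema3d, Sema3a and Sema3e follow one another with gaps of 536 and 422 kb, and Sema3c lies 3318 kb further on. Their log2 fold changes in that order were 0.56, 0.02, -1.15 and -1.06. On chromosome 3 Efna1, Efna3 and Efna4 lie within gaps of 33 and 10 kb and had values of -0.20, 0.13 and 0.99, none of them past the edgeR threshold. On chromosome 9 Sema3b and Sema3f, 72 kb apart, had values of -0.54 and -0.43, again not called.

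Epha8, 93 kb from Ephb2 on chromosome 4, was counted 3, 3 and 4 times in control and not at all in TGFalpha lungs. Slit1 was counted 7, 0 and 3 times in control and not at all in TGFalpha lungs. Both were too low to test.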
